A study of Mus musculus with 9 samples.

Results

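The 10 genes described here encode cytokines and cytokine subunits of the IL-6, IL-12 and IL-10 families, and they were measured in bone-marrow-derived macrophages (BMDMs) given LPS with or without an LXR agonist. They were found in the count table by gene symbol (Il6, Lif, Osm, Clcf1, Il12a, Il12b, Il23a, Il27, Ebi3 and Il10), and all 10 were present among its 24061 symbols. BMDMs are primary macrophages grown from marrow, here of female C57BL/6J mice aged 8 to 10 weeks, over 7 days in medium with L-cell conditioned medium, and then kept without serum for a day. Every culture received DMSO or drug in serum-free medium. Veh cultures had DMSO and no LPS. LPS cultures had DMSO and then LPS at 10 ng/mL over 2 hr. T0+LPS cultures had 500 nM T0901317 (T0) from 3 hr before the same LPS. LPS, or lipopolysaccharide, is a bacterial cell wall product that activates TLR4, and T0 is a synthetic agonist of LXR, the nuclear receptor for oxidized cholesterol. Each group had 3 RNA-seq libraries, and by the study's methods each library is a separately differentiated culture. There was no group with T0 and no LPS among these libraries, and the harvest time of Veh is not given in the sources used here.

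IL-6 family cytokines (IL-6, LIF, oncostatin M and CLCF1 among them) signal through the shared receptor chain gp130, mainly to STAT3. IL-12 family cytokines are pairs of an alpha and a beta chain made from separate genes, so the output of a macrophage depends on which chains it transcribes together. The beta chain of Il12b joins that of Il12a to form IL-12, which drives interferon-gamma production, or that of Il23a to form IL-23, which maintains IL-17-producing T cells. The beta chain of Ebi3 joins that of Il27 to form IL-27. IL-10, secreted as a dimer, restrains macrophage activation through STAT3. In macrophages most of these genes are silent or low at rest and are switched on by TLR4 through NF-kB, AP-1 and C/EBP factors, and the receptors signal back through JAK kinases, STATs and their SOCS inhibitors.

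The sequence just upstream of 3 of these genes is shown because Il12b had the largest and Ebi3 the smallest increase with LPS among the genes called, and Il6 is the best known of the set. RefSeq entries of the GRCm38.p6 assembly gave windows of 250 bases ending at the start site for 5 of the 10 genes, Il6, Il12a, Il12b, Lif and Ebi3. Capitals mark letters that matched a searched motif, and all runs read 5′ to 3′ on the plus strand, which is the strand of these genes.
Il6, chr5:30012864-30013113: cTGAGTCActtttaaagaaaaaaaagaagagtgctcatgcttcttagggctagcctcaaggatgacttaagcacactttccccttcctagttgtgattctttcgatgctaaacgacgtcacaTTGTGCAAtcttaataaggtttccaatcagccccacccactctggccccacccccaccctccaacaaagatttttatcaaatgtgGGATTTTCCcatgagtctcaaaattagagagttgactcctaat
Il12b, chr11:44399813-44400062: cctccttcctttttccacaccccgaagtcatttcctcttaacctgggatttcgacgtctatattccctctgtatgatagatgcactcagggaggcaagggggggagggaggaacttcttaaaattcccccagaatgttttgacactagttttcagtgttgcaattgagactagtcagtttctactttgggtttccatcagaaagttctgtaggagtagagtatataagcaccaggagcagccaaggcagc
Ebi3, chr17:55952373-55952622: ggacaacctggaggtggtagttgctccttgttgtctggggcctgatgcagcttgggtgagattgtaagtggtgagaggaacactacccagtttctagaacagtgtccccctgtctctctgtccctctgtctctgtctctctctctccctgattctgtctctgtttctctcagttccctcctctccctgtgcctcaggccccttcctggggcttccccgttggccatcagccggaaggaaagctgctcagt

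Both strands of each window were searched for a kB-like motif (GGANNTTCC), an AP-1 motif (TGANTCA), a C/EBP-like motif (TTGCNNAA) and the nuclear receptor half-site AGGTCA. The Il6 window held GGATTTTCC from 43 to 35 bases before the start, TTGTGCAA from 128 to 121 bases before it and TGAGTCA from 249 to 243 bases before it, and no half-site. These 3 matches did not overlap. The Il12b and Ebi3 windows held none of the 4 motifs in these letters. Of the windows not printed, the upstream one of Il12a held a kB-like match and that of Lif held an AP-1 match. Among 32851 windows of the same length, 3.59% held the kB-like motif, 6.75% the AP-1 motif, 9.56% the C/EBP-like motif and 14.0% the half-site. A match describes letters in a window and is not a measured binding site. Only these exact patterns were searched, so a window without a match, such as that of Il12b, may still hold a site written in other letters. The Il6 row of the count table begins at 30013161, downstream of the RefSeq start used for its window.

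Each library held between 13299044 and 16467983 counted reads, and the group medians were 15086484 (Veh), 13661218 (LPS) and 15320506 (T0+LPS). Gene positions are those of mm10, and levels are CPM, counts scaled to the library total and to edgeR's TMM factors over all 9 libraries. Libraries of a group differed by more than counting noise (chi-square over its degrees of freedom from 2.63 to 6.67) and were counted as separate samples. The labels were checked with a known target of each agent. Tnf, a TLR4 target, had a log2 fold change of 6.08 in LPS against Veh, and Abca1, an LXR target, one of 1.47 in T0+LPS against LPS. Of 8 macrophage markers, 7 were in the table and 6 of them were tested, with summed levels of 24242 to 26482 CPM in Veh, 28882 to 30519 CPM in LPS and 31535 to 33127 CPM in T0+LPS. Lyz2 made up most of these sums, at 19747 CPM on average in Veh. In LPS against Veh, Cd14, Csf1r and Lyz2 were called higher (log2 fold changes of 1.73, 0.26 and 0.12) and Cd68 was not called (0.02). Fcgr1 and Mertk were called lower in LPS against Veh (-0.84 and -0.81), and Mertk, also an LXR target, was called higher with T0 (1.06). The seventh, Itgam, had 0 reads on 3 unshared bases. Summed T cell markers reached at most 3.37 CPM, mainly through Cd4, with 161, 85 and 94 reads in Veh, LPS and T0+LPS. Cd4 was called lower in LPS against Veh (log2 fold change -0.54). Cd3e, Lck and Cd8a had 0 reads, Lck on 224 and Cd8a on 31 unshared bases. Summed B cell markers reached at most 2.45 CPM, mainly through Cd79b (97, 47 and 41 reads), which was also called lower in LPS against Veh (log2 fold change -0.66). NK cell, fibroblast and mast cell markers stayed at or below 0.661 CPM in every library. Of these, Klrb1c, Eomes and Kit were measured on only 9, 57 and 16 unshared bases. Summed neutrophil markers were at most 1.97 CPM in Veh, at least 2.93 CPM in LPS and at most 2.82 CPM in T0+LPS. The sums came mainly from S100a8 (50, 90 and 68 reads in Veh, LPS and T0+LPS) and Ngp (26, 34 and 32 reads). S100a8 was called higher in LPS against Veh (log2 fold change 1.22). Mpo had 0, 3 and 1 reads, Elane had 0, 0 and 2, and S100a9 had 0 on 3 unshared bases. Summed dendritic cell markers were at most 0.529 CPM in Veh and at least 2.08 CPM in both LPS-treated groups, mainly through Xcr1 (12, 71 and 89 reads in Veh, LPS and T0+LPS) and Zbtb46 (5, 28 and 18 reads). Xcr1 was called higher in LPS against Veh (log2 fold change 2.90). Cd209a had 6, 0 and 3 reads, Flt3 and Siglech had 1 read between them, and Clec9a had no unshared base and could not be measured. Whether cells other than macrophages were present, and what part they had in the cytokine levels, was not tested.

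In resting cells only Ebi3 was well expressed. Compared between genes as CPM per kb of bases that no other row of the table shares, the mean level of Ebi3 in Veh was 30.3 ± 1.19 (SD, n = 3). The next were Osm, at 1.83 ± 0.0592, and Il27, at 1.76 ± 0.477, whose ranges overlapped. Below them lay Il10, Clcf1, Il6, Il12b and Il23a, from 0.588 down to 0.0162 CPM per kb, and each of these neighbours overlapped in range. After LPS the order was Il27, Ebi3, Il12b, Il6, Clcf1, Il10, Il23a and Osm, and no neighbours overlapped. Il27 stood at 131 ± 4.84 CPM per kb (SD, n = 3), Ebi3 at 74.9 ± 3.58, Il12b at 38.6 ± 1.72 and Il6 at 27.3 ± 2.96. Clcf1 had 11.9 ± 0.858, Il10 had 6.21 ± 0.279, Il23a had 2.16 ± 0.353 and Osm had 1.62 ± 0.361. Ebi3 headed the list in Veh already, and in LPS the chains of IL-27 held the first 2 places, with the beta chain of IL-12 and IL-23 next and the IL-23 alpha chain near the foot.

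**Figure D1:**
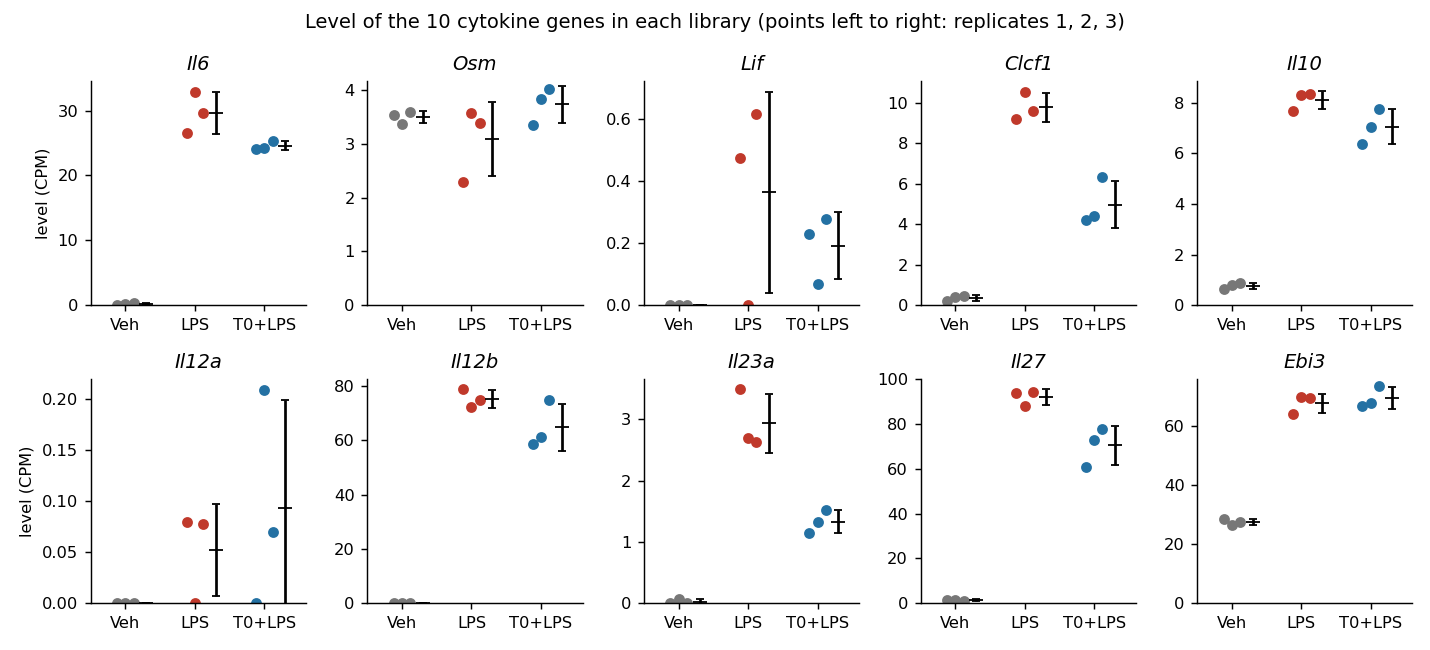
Level in CPM (vertical axis, from 0, with its own scale in each panel) of the 10 genes in Veh, LPS and T0+LPS libraries, with points for replicates 1 to 3 from left to right and a bar for the mean ± SD. Of the panels, 7 rise with LPS by the test, Osm stays between 2.30 and 4.02 CPM in all libraries, and Clcf1, Il23a, Il27 and Il6 are lower in all 3 T0+LPS libraries than in all 3 LPS libraries.

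LPS against Veh asks which of these genes a TLR4 signal switches on within 2 hr. Il12b and Il6 went from near absence to among the highest levels of the set, Il27 and Clcf1 rose from low levels, Il10 rose by about an order of magnitude, Ebi3 rose least, and Osm did not pass the test. edgeR's filter for low counts left 8 of the 10 genes for testing, all but Il12a and Lif. Of these 8, 7 were called higher in LPS and 0 lower, while 32.9% of all 9559 genes tested were called higher and 31.2% lower (edgeR's quasi-likelihood test, Benjamini-Hochberg adjusted p under 0.05). Osm was not called at an unadjusted p under 0.05 either, and DESeq2 and limma-voom also called 7 higher and 0 lower. The median log2 fold change of the 8 was 5.49, beside -0.00 for all genes tested. Il6, Il12b, Il23a and Clcf1, with 8, 3, 1 and 18 reads in Veh, passed the filter only through their LPS libraries. A call of lower was not possible for them, so neither this count nor this median is evidence about the set. In RNA from whole cultures, more RNA per cell and more cells that express a gene cannot be told apart.

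Among the IL-6 family, Il6 (chr5:30013161-30019968, plus strand, 5 exons), the main inducer of the acute phase response, had 0, 0.198 and 0.290 CPM in the Veh libraries and 26.5, 32.9 and 29.6 CPM in the LPS libraries. Its log2 fold change was 7.50 (SE 0.25, edgeR adjusted p = 1.1e-13). Because Veh held only 8 Il6 reads in all, the ratio of scaled counts, 190, has an exact 95% interval of 96.2 to 441, which covers counting error only. The fitted log2 value was 6.86 without Veh replicate 1 and 8.26 without Veh replicate 3. Clcf1 (chr19:4214392-4222615, plus strand, 3 exons), a gp130 ligand that acts on neurons and B cells, had 0.214, 0.397 and 0.463 CPM in Veh and 9.19, 10.6 and 9.57 CPM in LPS, a log2 fold change of 4.77 (SE 0.22, edgeR adjusted p = 1.4e-11). The groups did not overlap for either gene. In the GENCODE annotation AC109138.7 has exons within the span of Clcf1 on the same strand. Whether they share bases with the exons of Clcf1 was not tested, so some reads counted for Clcf1 may come from AC109138.7.

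Osm (chr11:4236785-4241026, plus strand, 3 exons), which encodes oncostatin M, an activator of stromal and liver cells, had 3.53, 3.37 and 3.59 CPM in Veh and 2.30, 3.57 and 3.40 CPM in LPS. The groups overlapped, and the log2 fold change was -0.17 (SE 0.19, edgeR adjusted p = 0.44). With plain library totals in place of TMM, which lowers the median of all genes to -0.28, Osm was called lower at -0.45 (adjusted p = 0.040). Lif (chr11:4257568-4272514, plus strand), the leukemia inhibitory factor gene next to Osm, had 0 reads in Veh and 6, 0 and 8 reads in the LPS libraries. It did not pass the filter. Taking 3 reads over the Veh group as the floor, its level in LPS was at least 6.07-fold higher. This bound does not cover the counting error of the 14 LPS reads, and it was 3.88-fold without LPS replicate 3 and 9.33-fold without LPS replicate 2, which had none. DESeq2, which does test Lif, did not call it (adjusted p = 0.26). The count table measured Lif on 566 unshared bases because its 2 transcripts share most of their length, so its depth is lower than that of a gene with 1 transcript.

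Among the alpha chains of the IL-12 family, Il27 (chr7:126589295-126594910, minus strand, 5 exons) had 1.34, 1.52 and 0.869 CPM in Veh and 94.1, 88.2 and 94.2 CPM in LPS. The gene rose 74.4-fold, with a log2 fold change of 6.22 (SE 0.11, edgeR adjusted p = 2.1e-17). Il23a (chr10:128296140-128298084, minus strand, 4 exons) had 0, 0.0661 and 0 CPM in Veh, 1 read in all, and 3.49, 2.69 and 2.63 CPM in LPS. Every LPS library was above every Veh library for both genes. For Il23a the log2 fold change was 6.72 (SE 0.52, edgeR adjusted p = 9.9e-09), and the ratio of scaled counts was 150 with an exact 95% counting interval of 26.3 to 5956. Without Veh replicate 2, which held the only Veh read, the fitted value was 8.47 and is no bound. Il12a (chr3:68690644-68698547, plus strand) had 0 reads in Veh, 2 in LPS and 4 in T0+LPS, on 165 unshared bases. Both groups lay at or near the floor, so no fold is given, and a response of the IL-12 alpha chain was not detectable at this depth.

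The beta chains behaved unlike each other. Il12b (chr11:44400063-44414017, plus strand, 8 exons) had 0, 0.0661 and 0.116 CPM in Veh, 3 reads in all, and 78.9, 72.2 and 74.9 CPM in LPS. Its log2 fold change of 10.14 (SE 0.18, edgeR adjusted p = 2.9e-17) was the largest of the 8, and the ratio of scaled counts was 1282 with an exact 95% counting interval of 438 to 6218. The fitted value was 9.54 without Veh replicate 1 and 10.95 without Veh replicate 3. Ebi3 (chr17:55952623-55957022, plus strand, 5 exons) already had 28.4, 26.2 and 27.3 CPM in Veh and reached 63.8, 69.5 and 69.3 CPM in LPS. All LPS libraries were above all Veh libraries, with a log2 fold change of 1.31 (SE 0.06, edgeR adjusted p = 9.1e-12), or 2.47-fold. The antisense gene Gm16712 shares 270 bases with Ebi3. Gm16712 went from 147 reads in Veh to 983 in LPS, and whether the counting used strand is not given in the sources used here. Without strand, reads on the shared bases would be absent, and any antisense reads on the other Ebi3 bases may be mixed in. With strand, Ebi3 was measured on 1171 bases rather than 901, and its level per kb given here is too high.

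Il10 (chr1:131019845-131024970, plus strand, 5 exons) had 0.641, 0.793 and 0.869 CPM in Veh and 7.69, 8.30 and 8.34 CPM in LPS. The groups did not overlap, and the log2 fold change was 3.40 (SE 0.19, edgeR adjusted p = 1.3e-10), or 10.5-fold. The gene for the inhibitory cytokine was therefore already higher at 2 hr, with a smaller fitted fold change than Il6, Il12b, Il23a, Il27 and Clcf1.

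**Figure D2:**
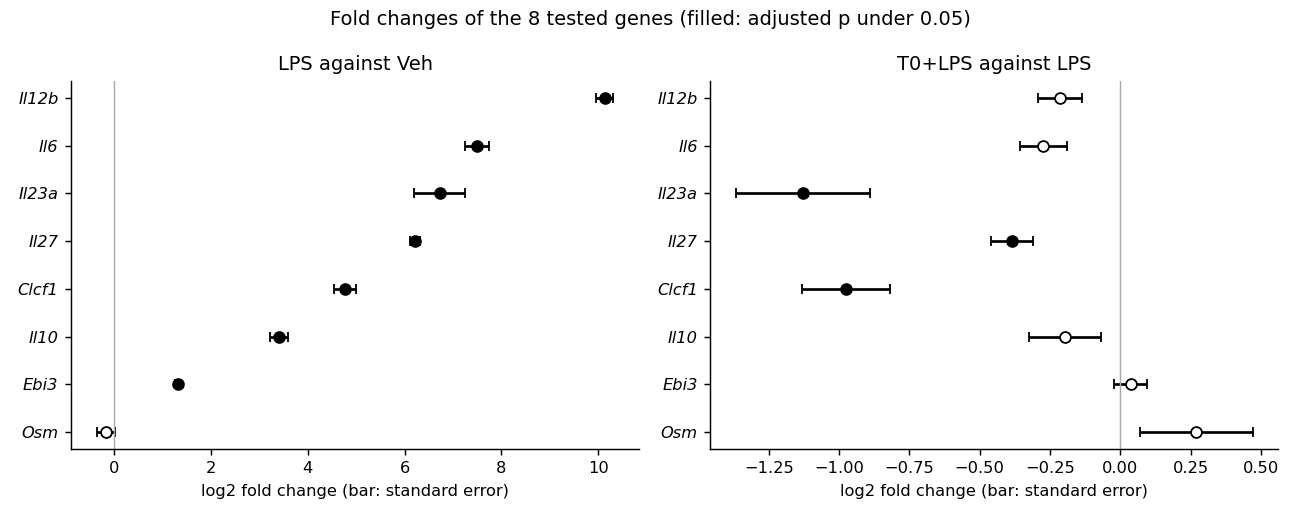
Log2 fold change (horizontal axis) with its standard error for the 8 tested genes, LPS against Veh on the left and T0+LPS against LPS on the right, each panel with its own scale and filled points at an edgeR adjusted p under 0.05. The left panel runs from -0.17 for Osm to 10.14 for Il12b, and the right panel from -1.13 for Il23a to 0.27 for Osm.

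T0+LPS against LPS asks which of the cytokine genes an LXR agonist holds down during the LPS response. Clcf1 and Il23a fell to 0.509 and 0.458 of their LPS level and Il27 to 0.766, while Il6, Il12b, Il10, Ebi3 and Osm did not pass the test. Of the 8 genes tested, 3 were called lower and 0 higher, beside 1.83% lower and 1.35% higher of all 9348 genes tested (edgeR's quasi-likelihood test, Benjamini-Hochberg adjusted). At an unadjusted p under 0.05, edgeR gave 5 lower and 0 higher. The share of all genes at that unadjusted threshold was not counted, so no unadjusted count in this text has a background beside it. limma-voom called 3 lower and 0 higher, and DESeq2 called 2 lower and 0 higher and gave no adjusted p for Il23a. The mean was lower with T0 in 6 of the 8, and in 4 (Clcf1, Il23a, Il27 and Il6) all 3 T0+LPS libraries lay below all 3 LPS libraries, as they did for 9.62% of all genes tested. The median log2 fold change of the 8 was -0.24, beside 0.00 for all genes. This comparison uses the same LPS libraries as the one above.

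Clcf1 had 9.19, 10.6 and 9.57 CPM in LPS and 4.19, 4.39 and 6.31 CPM in T0+LPS. Its log2 fold change was -0.97 (SE 0.16, edgeR adjusted p = 0.0022), 49.1% below LPS. T0+LPS replicate 3 was above the other 2 but still below every LPS library. Il23a had 3.49, 2.69 and 2.63 CPM in LPS and 1.14, 1.32 and 1.53 CPM in T0+LPS, from 115 and 56 reads in the 2 groups. The log2 fold change was -1.13 (SE 0.24, edgeR adjusted p = 0.015), 54.2% below LPS. LPS replicate 1 was the highest library, and without it the value was -0.99 with an adjusted p of 0.11. The call was also lost without T0+LPS replicate 1 (adjusted p = 0.057) or T0+LPS replicate 2 (adjusted p = 0.061).

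Il27 had 94.1, 88.2 and 94.2 CPM in LPS and 60.8, 72.9 and 77.6 CPM in T0+LPS. With 3619 and 2966 reads in the 2 groups, the smaller log2 fold change of -0.39 (SE 0.07, edgeR adjusted p = 0.0070), 23.4% below LPS, passed the test. None of the 3 genes returned to its Veh level. Measured on mean CPM above Veh, 55.1% of the LPS response of Il23a, 51.1% of that of Clcf1 and 23.9% of that of Il27 was absent with T0.

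Il6 had 26.5, 32.9 and 29.6 CPM in LPS and 24.1, 24.3 and 25.4 CPM in T0+LPS. The libraries did not overlap, but the log2 fold change of -0.27 (SE 0.08, edgeR adjusted p = 0.11) did not pass. Il12b had 78.9, 72.2 and 74.9 CPM in LPS and 58.5, 61.2 and 74.8 CPM in T0+LPS, and its log2 fold change was -0.21 (SE 0.08, edgeR adjusted p = 0.20). Here T0+LPS replicate 3 lay within the LPS range, and without that library the value was -0.33 with an adjusted p of 0.016. With no filter on low counts, both Il6 (adjusted p = 0.046) and Il12b (adjusted p = 0.033) were called lower at nearly the same fold change.

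Il10 had 7.69, 8.30 and 8.34 CPM in LPS and 6.39, 7.03 and 7.76 CPM in T0+LPS, and the groups overlapped. Its log2 fold change was -0.20 (SE 0.13, edgeR adjusted p = 0.56). Ebi3 had 63.8, 69.5 and 69.3 CPM in LPS and 66.8, 67.5 and 73.5 CPM in T0+LPS, with 0.04 as the log2 fold change (SE 0.06, edgeR adjusted p = 0.86), and its sign turned without LPS replicate 1 or without T0+LPS replicate 3. Osm had 2.30, 3.57 and 3.40 CPM in LPS and 3.35, 3.83 and 4.02 CPM in T0+LPS. Its log2 fold change was 0.27 (SE 0.20, edgeR adjusted p = 0.63), and 0.10 without LPS replicate 1, the lowest library. Lif had 14 reads in LPS and 3, 1 and 4 reads in the T0+LPS libraries, too few to test.

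In T0+LPS the order of levels per kb kept Il27 first, at 99.9 ± 12.3 CPM per kb (SD, n = 3), before Ebi3 at 76.9 ± 4.08, Il12b at 33.2 ± 4.47 and Il6 at 22.6 ± 0.645. Clcf1, at 6.06 ± 1.43, now overlapped Il10, at 5.41 ± 0.525, although it was clear of it in LPS alone. Il23a, at 0.979 ± 0.141, was last, below Osm at 1.96 ± 0.181.

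Because some of these chains pair in a cytokine and others oppose each other, the log2 ratio of 8 pairs of genes was taken within each library, a measure that needs no scaling between libraries. The ratio of Il23a to Il12b, the alpha and beta chains of IL-23, was -4.48, -4.73 and -4.81 in LPS and -5.63, -5.50 and -5.58 in T0+LPS. The 2 groups did not overlap, and the ratio was 0.90 lower on the log2 scale with T0. The ratio of Ebi3 to Il27, the chains of IL-27, was -0.56, -0.34 and -0.44 in LPS and 0.13, -0.11 and -0.08 in T0+LPS, higher by 0.43 with no overlap. Clcf1 to Il6 went from -1.60 ± 0.06 (SD, n = 3) to -2.32 ± 0.28, and Osm to Il6 from -3.27 ± 0.21 to -2.71 ± 0.10, both with no overlap. For these 4 pairs the 2-sided exact permutation p was 0.1, the smallest that 3 against 3 allows, and 0.2 after Benjamini-Hochberg adjustment over the 8 pairs, so none could pass 0.05. The ratios come from the same counts as the fold changes above, so they restate those changes and add no separate support. How often pairs of other genes show no overlap was not counted.

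The ratio of Il10 to Il6 differed by 0.06 between the groups (exact permutation p = 0.6, adjusted 0.8), with -1.86 ± 0.11 (SD, n = 3) in LPS and -1.80 ± 0.10 in T0+LPS. That of Il10 to Il12b differed by 0.02 (exact permutation p = 0.8, adjusted 0.914), with -3.21 ± 0.13 and -3.19 ± 0.07. The balance of the inhibitory cytokine gene to these inflammatory ones thus moved by less than its spread between cultures. The other 2 pairs, Il12a to Il12b and Lif to Il6, rested on a few reads of their first gene and gave exact permutation p-values of 0.6 and 1.0.

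**Figure D3:**
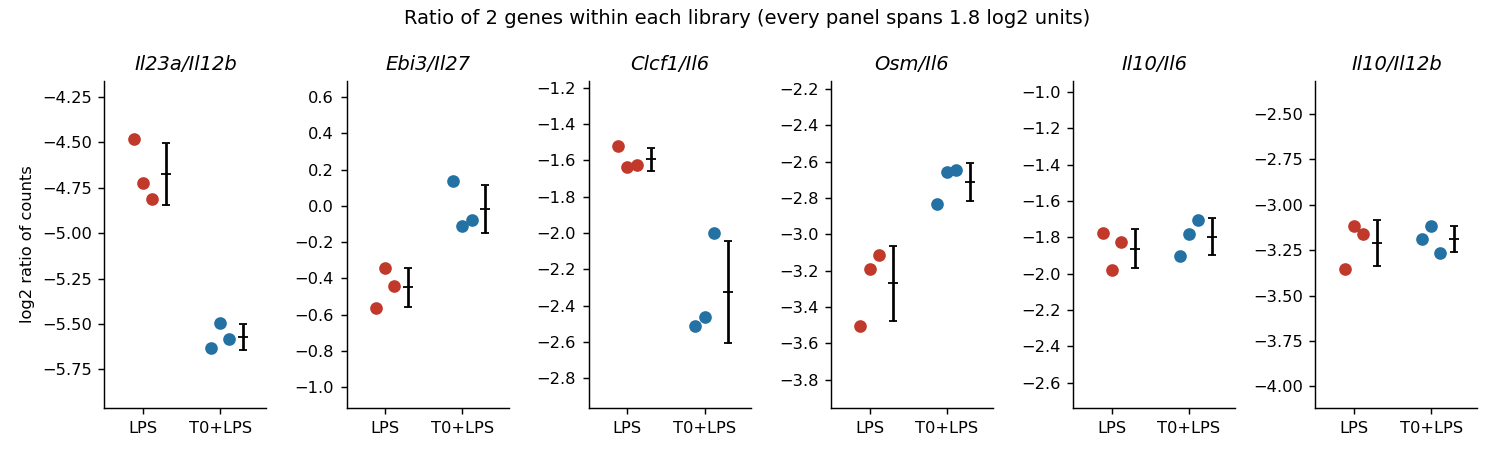
Log2 ratio of counts of 2 genes within each library (vertical axis, 1.8 log2 units in every panel) for 6 of the 8 pairs in LPS and T0+LPS, with a point per library and a bar for the mean ± SD. Il23a/Il12b and Clcf1/Il6 lie lower and Ebi3/Il27 and Osm/Il6 higher in all T0+LPS libraries, while Il10/Il6 and Il10/Il12b overlap between the groups.

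Within T0+LPS the same culture was low for every tested cytokine gene. Replicate 1 was the lowest and replicate 3 the highest of the group for all 8 tested genes. Over all 9348 genes tested, replicate 1 was the lowest in 36.7% and replicate 3 the highest in 32.6%, and over the 3148 genes called higher in LPS against Veh these shares were 42.7% and 35.1%. In LPS, replicate 1 was the lowest for 5 of the 8 genes, replicate 2 for 2 and replicate 3 for 1.

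**Figure D4:**
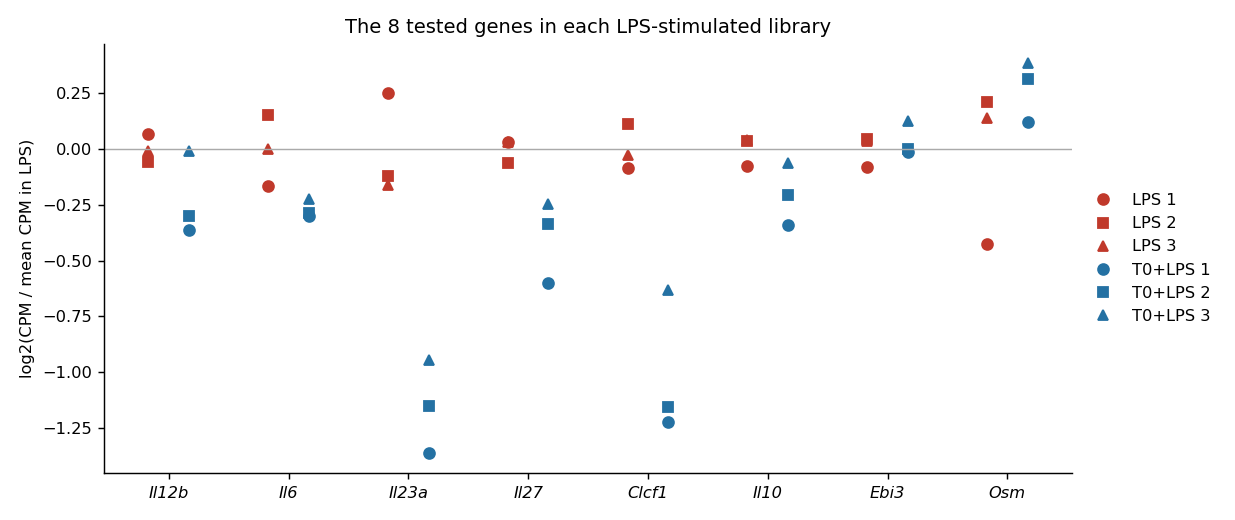
Level of the 8 tested genes in each LPS and T0+LPS library as log2 of CPM over the mean CPM of the LPS group (vertical axis), with a symbol per replicate and a line at 0 for the LPS mean. In T0+LPS the circle of replicate 1 is lowest and the triangle of replicate 3 highest for every gene, and Clcf1 and Il23a lie furthest below 0.

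The other genes of these pathways came from lists of ligands, receptors, signalling genes and regulators. None of the 10 other ligands had enough counts to be tested. Il11, Il20, Il22, Il24, Il31 and Ctf2 had 0 reads in all libraries, the most abundant was Ctf1, a cardiotrophin gene, with 11, 16 and 19 reads in Veh, LPS and T0+LPS, and Il19, an IL-10 family member, had 0, 13 and 9 reads.

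Of 16 receptor genes, 8 were tested, and with LPS 5 were called higher and 3 lower, a median log2 fold change of 0.34. Over all genes tested with LPS, 32.9% were called higher and 31.2% lower. DESeq2 called 4 higher and 3 lower. The 3 called lower were chains of IL-6 family receptors. Lifr, the LIF receptor, had -1.98 (SE 0.13, edgeR adjusted p = 1.2e-09), Il6ra, the IL-6 binding chain, had -1.17 (SE 0.06, adjusted p = 3.8e-11), and Il6st, which encodes gp130, had -0.56 (SE 0.05, adjusted p = 4.4e-08). Il6ra was at 103 ± 1.35 CPM in Veh (SD, n = 3) and at 45.9 ± 4.26 CPM in LPS. The largest increases were those of Il20rb at 0.96, Il10ra, the IL-10 binding chain, at 0.63, Il12rb2 at 0.46 and Il27ra at 0.37. Osmr, Il23r, Il20ra, Il22ra1 and Cntfr had at most 1 read. With T0, edgeR called 0 of the 8 receptors higher and 0 lower, beside 1.35% and 1.83% of all genes tested. The log2 fold changes of the receptors lay between -0.20 and 0.19, with a median of 0.01. At an unadjusted p under 0.05, with no share of all genes counted, there was 1 lower and 0 higher, and DESeq2 and limma-voom called none.

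Of 16 JAK, STAT and SOCS genes, 8 were tested, and with LPS 7 were called higher and 1 lower, beside 32.9% and 31.2% of all genes. Socs3, the feedback inhibitor of gp130 signalling, rose most (log2 fold change 9.82, SE 0.10), followed by Cish at 6.39, Jak2 at 3.43 and Jak1 at 0.68, and Stat5b fell (-0.64). DESeq2 called 9 higher and 0 lower, so the call of Stat5b rests on edgeR and limma-voom. Jak2 was measured on 83 unshared bases. Cish and Jak2, with 17 and 6 reads in Veh, passed the filter only through their LPS libraries and could not have been called lower. The 8 genes not tested each had several rows in the table, and Stat3, the main STAT of IL-6 and IL-10, had no unshared base, so it could not be measured. With T0, 2 of the 8 were called lower and 0 higher, beside 1.83% and 1.35% of all genes, with a median of -0.04. Socs3 had 624 ± 30.6 CPM in LPS (SD, n = 3) and 478 ± 49.9 CPM in T0+LPS, and its log2 fold change was -0.39 (SE 0.06, edgeR adjusted p = 0.0025). Cish, a STAT5-induced inhibitor, went from 28.6 ± 5.13 to 16.7 ± 4.82 CPM, a log2 fold change of -0.76 (SE 0.16, edgeR adjusted p = 0.012). At an unadjusted p under 0.05, with no share of all genes counted, there were also 2 lower and 0 higher. limma-voom called 2 lower and DESeq2 called 1 lower, neither with any higher.

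Of 24 regulators of cytokine transcription and mRNA decay, 20 were tested for LPS, with 13 called higher and 5 lower. The shares of all genes were 32.9% and 31.2%. The largest increases were those of Nfkbia, the NF-kB inhibitor, at 4.95, Bcl3 at 3.92, Zc3h12a, a nuclease that degrades Il6 mRNA, at 3.41, and Rel, an NF-kB subunit used by the Il12b and Il23a promoters, at 3.14. The largest decreases were those of Fos at -4.38, Atf3 at -2.17, Jun at -1.51 and Irf8 at -1.34. With T0, 19 were tested, 2 were called higher and 2 lower, beside 1.35% and 1.83% of all genes, and the median was -0.09. Atf3, a repressor of TLR4-induced cytokine genes, had 226 ± 14.5 CPM in LPS (SD, n = 3) and 358 ± 25.1 CPM in T0+LPS, for a log2 fold change of 0.66 (SE 0.06, edgeR adjusted p = 5.3e-06). Irf8, a factor of the Il12b promoter, went from 172 ± 4.76 to 256 ± 3.64 CPM, 0.58 (SE 0.05, edgeR adjusted p = 1.2e-06). Junb, an AP-1 subunit, fell (-0.31, SE 0.04, edgeR adjusted p = 0.00079), as did Zfp36, which destabilizes cytokine mRNAs (-0.25, SE 0.05, edgeR adjusted p = 0.015). Nfkb1, Rel, Rela and Cebpd had log2 fold changes of -0.09, -0.13, -0.05 and -0.05 and were not called. Bcl3 (-0.16), Nfkbia (-0.14) and Nfkb2 (0.45, on 322 unshared bases) were not called either. Irf1 had the lowest value of the list, -0.57, and was not called (edgeR adjusted p = 0.072). At an unadjusted p under 0.05, 4 of the 19 were higher and 8 lower. No share of all genes was counted at that threshold, so no fall of the list is read from this. DESeq2 and limma-voom also called 2 higher and 2 lower. Cebpb had no unshared base and Nfkbiz had 23, so these regulators of Il6 and Il12b could not be tested.

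**Figure D5:**
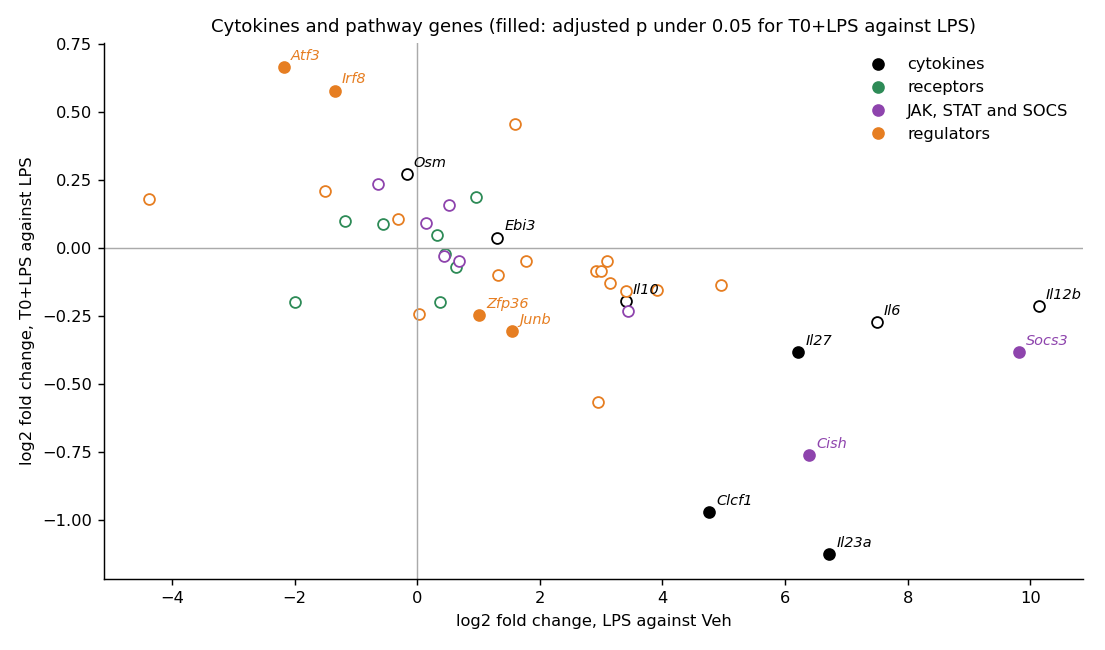
Log2 fold change of LPS against Veh (horizontal axis) and of T0+LPS against LPS (vertical axis) for the cytokines, receptors, signalling genes and regulators tested in both, filled where the edgeR adjusted p for T0+LPS against LPS was under 0.05. Both axes use the same LPS libraries, so their error is shared and no relation is read from them, and the filled points are Clcf1, Il23a, Il27, Socs3, Cish, Junb and Zfp36 below 0 and Atf3 and Irf8 above 0.

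The genes nearest to a cytokine gene in both log2 fold changes were sought among 7207 genes with a mean of at least 5 CPM in LPS that were tested in both comparisons, each fold change divided by its SD over genes. Nearest to Il12b were the neutrophil chemokine genes Cxcl1 (distance 0.188, with 10.24 for LPS and -0.25 for T0) and Cxcl3 (distance 0.438, with 10.57 and -0.17). Unlike Il12b, Cxcl1 was called lower with T0 (edgeR adjusted p = 0.0031), while Cxcl3 was not called (adjusted p = 0.063). Nearest to Il6 were Gpr84, a receptor for medium-chain fatty acids, at a distance of 0.569 and Plat, the tissue plasminogen activator gene, at 0.574. Il10 had Arhgef3 at 0.117 and Arrdc4 at 0.154, and Osm, which did not pass either test, had Otud3 at 0.0219 and Rgag4 at 0.0565. Clcf1 had Slc7a2, an arginine transporter gene, at 0.513 (5.10 and -0.88), which was not called with T0 (edgeR adjusted p = 0.067). Its second was the cell cycle inhibitor gene Cdkn1a at 1.20 (3.57 and -1.08, edgeR adjusted p for T0 = 0.0010). Likeness here is over 3 groups and says nothing of shared control.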

How the data were processed

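RNA-seq was made from polyadenylated RNA of 9 BMDM cultures, 3 each of Veh, LPS and T0+LPS, grouped by their labels. The authors used cutadapt for adaptors, HISAT2 for alignment to mm10 and featureCounts (Subread) for counting on RefSeq genes, and no strand setting is given in the sources used here. The deposited values are whole read counts with no normalization, and by their exon positions the rows are single RefSeq transcripts. Reads on bases shared between rows are taken to be absent, which leaves few measured bases for genes with several transcripts. Stat3, Cebpb and Clec9a, with 0 unshared bases by the rows' exons, had 0 reads in all groups. Single reads were not at hand to test this further. The other 2 deposited tables hold the authors' DESeq2 p-values, RPKM folds and gene names of their own comparisons and were not used.

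Rows of a symbol were summed (4813 of 24061 symbols had several). Counts were tested with edgeR 4.0.16 in R 4.3.3 on 6 libraries at a time (TMM, filterByExpr, glmQLFit and glmQLFTest, Benjamini-Hochberg over all genes, called at adjusted p under 0.05), checked on simulated data. Ratios of genes used counts plus 0.5 and 2-sided exact permutation tests in scipy 1.17.1. DESeq2 1.42.0, limma-voom 3.58.1, other scalings and filters, rows not summed, a fit to all 9 libraries, a replicate block and fits without each library were alternatives, and the lowest fold of Lif without each LPS library was added after the data were seen. With 3 libraries a group and 13299044 to 16467983 counts each, a gene with 0 counts in a group has a floor of 3 counts over that group.

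The text names all 10 cytokine genes, list genes called with T0, up to 4 examples a list and direction for LPS, the 2 nearest genes for Il6, Il12b, Il10, Osm and Clcf1, and Abca1 and Tnf as checks. List genes given for their low counts, unshared bases or NF-kB and C/EBP roles, and Irf1 for its value with T0, were added after their values were seen. The cytokine genes and lists were chosen with earlier results of these data known.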

Additional observations from a re-analysis of the deposited data

How the results depend on the processing

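Clcf1 and Il27 stayed called lower with T0 in every setting and with each library left out, from -1.19 to -0.87 and from -0.46 to -0.29 on the log2 scale, and 7 cytokine genes stayed called higher with LPS in all 6 fits without a library. Depth limits Lif and Il12a most. edgeR with no filter or a minimum of 10 counts called 8 cytokine genes higher in LPS, Lif among them (adjusted p = 0.00029 and 0.0056), while DESeq2 tested Lif without calling it (adjusted p = 0.26). With library totals, LPS against Veh gave 1694 genes higher and 5411 lower (76.2% of calls lower, against 48.6%) and 1 cytokine gene lower, Osm at -0.45. With no filter, T0+LPS against LPS gave 225 genes higher, 285 lower and 5 cytokine genes lower. Without each library in turn it gave 59 to 167 genes higher, 82 to 191 lower and 2 to 4 cytokine genes lower, lowest without LPS replicate 1 (59 and 82), while without T0+LPS replicate 1 there were 86 and 103 and without T0+LPS replicate 2 there were 78 and 94. With a library left out, the log2 fold change of Ebi3 with T0 ranged from -0.0060 (T0+LPS replicate 3) to 0.064, and was -0.0029 where LPS replicate 1 was left out, beside 0.04 with all. The cause of these changes was not tested beyond the samples and genes each setting removed.

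Same-numbered libraries showed little likeness between groups. The correlations of their deviations were 0.03, 0.04 and -0.01 for LPS with Veh and 0.05, -0.01 and 0.00 for T0+LPS with LPS. With 3 libraries a group and noise in each, such values cannot exclude a pairing. With the replicate number as a block, LPS against Veh gave 3053 genes higher and 2926 lower, beside 3148 and 2981 without it. T0+LPS against LPS gave 155 higher and 230 lower with the block, beside 126 and 171 without it. The block fits called 7 cytokine genes higher with LPS and 3 lower with T0.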
